A study of Mus musculus with 4 samples.

Results

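Cytochrome P450 genes were taken as all genes whose symbol is Cyp followed by a number, a letter and a number, on Affymetrix probe sets that list 1 gene. This gave 71 genes of 18193 on the array, and 50 of them were tested because their mean signal exceeded the median over non-control probe sets. The samples were RNA from the liver of C57BL/6 mice made fibrotic with carbon tetrachloride, and the labels give the cell type as bone marrow-derived cells that had migrated there. All mice received 30 injections of carbon tetrachloride at 1 ml/kg. The PBS group (2 arrays) received mouse serum albumin at 0.1% in phosphate-buffered saline, and the G-CSF group (2 arrays) received recombinant human granulocyte colony-stimulating factor, the cytokine that drives neutrophil production, at 100 µg/kg. Both were given over the 7 days before the last carbon tetrachloride dose. The labels give no age, sex or sort for these mice, and they do not say whether each array holds 1 animal. The p-values below therefore measure only the spread between these arrays, which may be technical.

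Cytochrome P450 enzymes are heme proteins that insert oxygen into their substrates, with electrons passed to them by P450 oxidoreductase or, in mitochondria, by ferredoxin. Families 1 to 3 clear drugs and toxins in the liver, family 4 hydroxylates fatty acids and eicosanoids, and the higher families make or break down bile acids, steroid hormones, vitamin D and retinoic acid. Most liver P450 enzymes sit in the pericentral hepatocytes around the central vein, where Cyp2e1 turns carbon tetrachloride into the radical that kills those cells, while Cyp2f2 marks the periportal hepatocytes.

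The 250 bases before the transcription start are shown for 3 genes that stand for the patterns described below. Cyp2e1 is the pericentral enzyme that activates carbon tetrachloride, Cyp2c37 belongs to the Cyp2c genes with the lowest G-CSF values relative to PBS replicate 2, and Cyp4f18 had the largest difference between the groups. The sequences are those of RefSeq on GRCm38.p6, from the plus strand at chr7:140763569-140763818 for Cyp2e1, the plus strand at chr19:39992174-39992423 for Cyp2c37, and the minus strand at chr8:72009627-72009876 for Cyp4f18. Capitals mark the matches to the 5 motifs searched.
Cyp2e1: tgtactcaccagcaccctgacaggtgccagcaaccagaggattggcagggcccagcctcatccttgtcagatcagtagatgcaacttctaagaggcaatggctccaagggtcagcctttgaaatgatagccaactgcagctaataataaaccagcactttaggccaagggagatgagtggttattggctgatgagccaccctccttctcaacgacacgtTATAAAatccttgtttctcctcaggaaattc
Cyp2c37: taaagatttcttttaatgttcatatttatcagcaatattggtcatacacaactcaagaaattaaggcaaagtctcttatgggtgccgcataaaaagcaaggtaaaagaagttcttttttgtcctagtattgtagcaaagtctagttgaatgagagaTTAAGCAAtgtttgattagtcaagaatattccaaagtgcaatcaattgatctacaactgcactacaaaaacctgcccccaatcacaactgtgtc
Cyp4f18: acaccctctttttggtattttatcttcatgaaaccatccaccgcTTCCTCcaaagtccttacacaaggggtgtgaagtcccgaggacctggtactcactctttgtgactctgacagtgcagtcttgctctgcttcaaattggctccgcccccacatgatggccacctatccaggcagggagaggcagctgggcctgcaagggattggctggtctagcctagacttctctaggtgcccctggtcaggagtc

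In Cyp2e1 the capitals are TATAAA, the TATA box, which begins 31 bases before the start. It was searched on the sense strand only. It lay in the 250 bases before the start in 13 of 58 P450 promoters (22.4%) and in 7.59% of all 32851 promoters. In Cyp2c37 the capitals are a match to TTGCNNAA, the site of C/EBP factors of hepatocytes and granulocytes, on the minus strand and beginning 94 bases before the start. That motif, searched on both strands, lay in 14 of the 58 P450 promoters (24.1%), of 10 genes, and in 9.56% of all promoters. In Cyp4f18 they are a match to GAGGAA, the core site of the myeloid factor PU.1, on the minus strand and beginning 206 bases before the start. It lay in 15.5% of P450 promoters against 23.3% of all. The HNF1-type motif GTTAAT lay in 5.17% against 6.43%, and the AHR core GCGTG in 22.4% against 28.2%, both searched on both strands. The 58 promoters belong to 51 of the 71 genes, since some genes have several start sites. A match to such short letters is a description and shows no binding, and no match overlaps another in the 3 sequences shown.

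The array of PBS replicate 1 was unlike the other 3, with high T cell and low hepatocyte signals (values below), and the labels do not say how this sample differed. Every PBS mean and gap below includes it unless stated. Most P450 genes were low in PBS replicate 1, high in PBS replicate 2 and intermediate on both G-CSF arrays. PBS replicate 1 was the lowest array and PBS replicate 2 the highest for 39 of 50 tested genes (78.0%), an order that 21.8% of all 12187 tested genes had. PBS replicate 2 lay above PBS replicate 1 for 48 of the 50, by at least 2-fold for 39 and at least 4-fold for 17. The exceptions were Cyp2c39 and Cyp39a1. The median gap between the PBS arrays was 1.61 on the log2(signal + 23) scale, a 3.06-fold difference, against 0.16 over all genes, where gaps of both signs cancel. Without regard to sign the median gap between the PBS arrays was 1.61 for P450 genes and 0.70 for all genes. The same measure between the G-CSF arrays was 0.28 and 0.21. The PBS arrays thus lay further apart than the G-CSF arrays for both sets of genes.

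**Figure D1:**
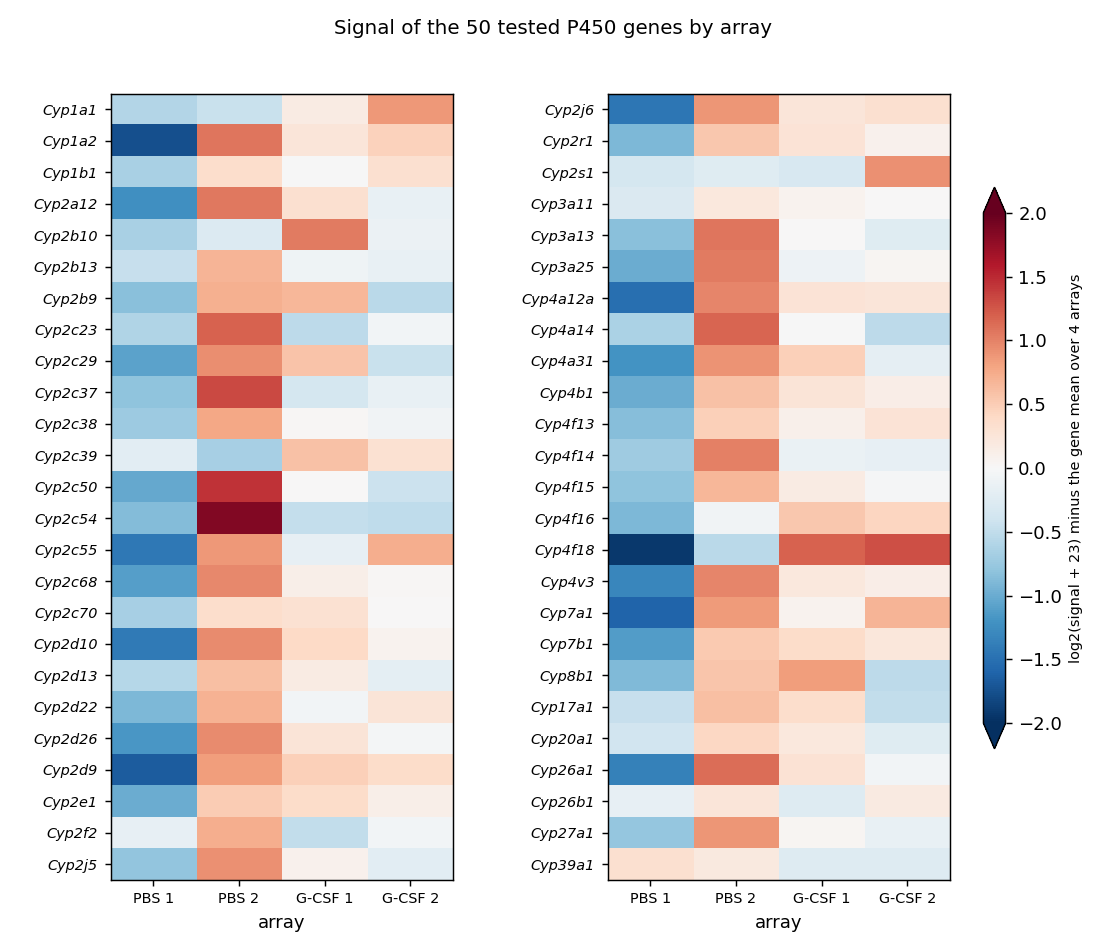
Heat map of the 50 tested P450 genes (rows, by family) on the 4 arrays (columns); colour is log2(signal + 23) minus the mean of that gene over the arrays, red above and blue below. PBS replicate 1 is the lowest array for 45 genes and PBS replicate 2 the highest for 42.

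The groups overlapped for 44 of the 50 genes, and no P450 gene passed the test. The fit was limma across all 12187 genes with Benjamini-Hochberg adjustment at 0.05, with each difference taken as the G-CSF mean minus the PBS mean of log2(signal + 23) and followed by its standard error (SE) from 2 arrays a group. It called 0 of 50 P450 genes and 0 of all genes (0%). The unadjusted p was below 0.05 for 1 P450 gene, Cyp4f18, which was higher, and for 3.52% of all genes (3.13% higher, 0.386% lower). The lowest adjusted p of a P450 gene was 0.629 and the next lowest 0.988. The median difference of the 50 genes was 0.21, with 32 above 0 and 18 below, and the median over all genes was 0.07. For any 1 gene an exact two-sided permutation test on these arrays cannot give a p below 0.333.

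The remaining 6 genes had groups that did not overlap, 5 higher with G-CSF (18.6% of all genes were) and 1 lower (12.1% of all genes were). At least 2-fold apart without overlap were 2 of the 50, Cyp4f18 and Cyp1a1, both higher, against 5.56% of all genes (4.04% higher, 1.52% lower). Both PBS values of Cyp1a1 were not above background, so only Cyp4f18 has a measured difference of that size. With a pseudocount of 1 the count was 4.

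Cyp4f18 encodes a hydroxylase of leukotriene B4 that is found in mouse neutrophils. It read 132 and 387 (PBS) against 1331 and 1426 (G-CSF), each pair in the order replicate 1, replicate 2, as in all values below. Both G-CSF arrays lay far above both PBS arrays, and they differed little from each other. The difference was 2.47 ± 0.54 (SE), a 5.55-fold higher level, with a 95% interval of 1.10 to 3.84 (limma adjusted p = 0.629). Against PBS replicate 1 alone it was 3.17 and against PBS replicate 2 alone 1.77. A separate Cyp4f18 probe set read 2.45 to 3.88 on all arrays, which is within background, and the mean over both probe sets gave a difference of 1.22. All 15 neutrophil markers listed were higher on both G-CSF arrays, with a summed signal of 18013 to 29181 with PBS and 266824 to 313224 with G-CSF. This sum includes Lcn2, which is also on the acute phase list and read 2536 and 9128 (PBS) against 34540 and 24627 (G-CSF). Among the defining neutrophil markers, Cxcr2 read 37.4 and 23.5 with PBS, within background, and 848 and 1240 with G-CSF. Their part in the Cyp4f18 difference was not tested. In such bulk RNA, fewer cells of a type and less RNA per cell cannot be told apart.

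**Figure D2:**
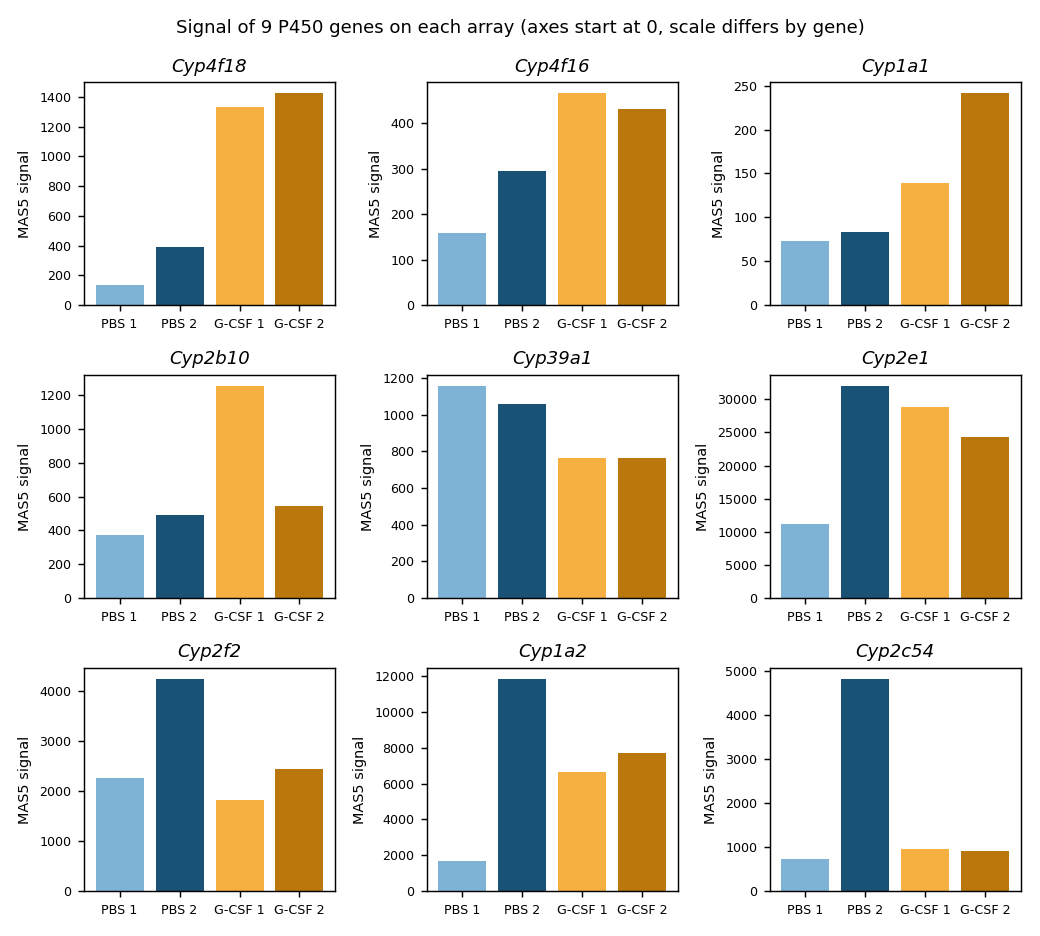
MAS5 signal (bars, linear axis from 0, scale set per gene) of 9 P450 genes on the 4 arrays. Cyp4f18 is at 132 and 387 with PBS and at 1331 and 1426 with G-CSF, whereas for Cyp2e1, Cyp1a2 and Cyp2c54 the highest array is PBS replicate 2.

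The other genes higher on both G-CSF arrays had smaller fitted differences than Cyp4f18, and for Cyp1a1 and Cyp2c39 only a lower bound of the fold is known. Cyp4f16, a relative of Cyp4f18, had signals of 157 and 295 (PBS) against 466 and 430 (G-CSF) (difference 0.97 ± 0.41, limma adjusted p = 0.988). A weaker Cyp4f16 probe set gave 0.38, and on it the groups overlapped, at 58.7 and 106 (PBS) against 145 and 82.7 (G-CSF). Cyp1a1, the classical target of the aryl hydrocarbon receptor, read 73.1 and 83.7 with PBS, both not above background, and 140 and 242 with G-CSF, and was at least 1.83-fold higher. Cyp2c39 read 93.3 and 61.7 with PBS, also not above background, and 178 and 143 with G-CSF, and was at least 1.60-fold higher. These bounds set each PBS array at its background, the highest signal of 27 bacterial control probe sets. On the G-CSF arrays that limit was 86.4 and 63.0, and both genes lay above it on both.

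Cyp2b10, the gene induced through the receptor CAR, had signals of 371 and 489 (PBS) against 1255 and 546 (G-CSF). It was high on 1 G-CSF array only, and G-CSF replicate 2 lay just above PBS replicate 2. The difference was 0.93 ± 0.49 (adjusted p = 0.988). Without G-CSF replicate 1 it was 0.34. Its other 2 probe sets gave 1.01 and 0.70, and the groups overlapped on the latter, which read 273 and 403 (PBS) against 874 and 346 (G-CSF).

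Cyp39a1, the oxysterol 7-alpha-hydroxylase of bile acid synthesis, was the 1 gene lower on both G-CSF arrays. Its signals were 1157 and 1057 (PBS) against 763 and 766 (G-CSF), with close agreement within each pair. The difference was −0.52 ± 0.32, a level 1.43-fold lower (95% interval −1.32 to 0.29, limma adjusted p = 0.988). It lay between −0.58 and −0.46 in every alternative fit made. Cyp39a1 was also 1 of the 5 tested genes for which PBS replicate 1 was not the lowest array.

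**Figure D3:**
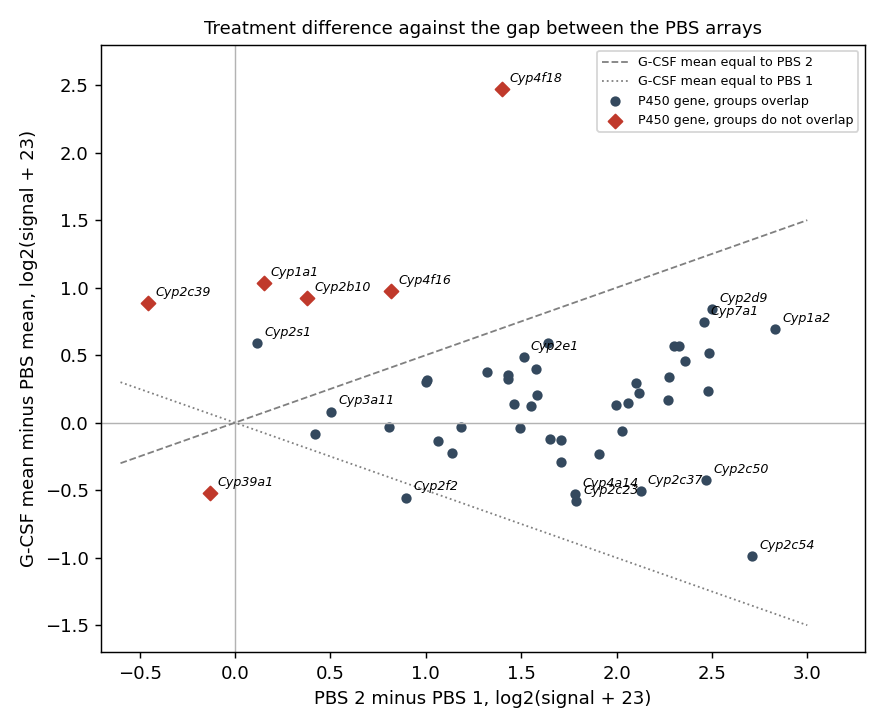
Each point is 1 of the 50 tested P450 genes, with the gap between the PBS arrays (PBS 2 minus PBS 1, log2(signal + 23)) on the horizontal axis and the G-CSF minus PBS difference on the vertical axis. Between the broken lines the G-CSF mean lies between the PBS arrays, as it does for 38 of the 39 genes with a gap of at least 1; red diamonds are the 6 genes whose groups do not overlap.

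Among pericentral P450 genes, 12 of 15 listed were tested, and 11 of these had the order with PBS replicate 1 lowest and PBS replicate 2 highest. The median gap between the PBS arrays was 2.06, and the median difference between the groups was 0.11, with 7 of 12 above 0. Cyp2e1 had signals of 11204 and 32028 (PBS) against 28911 and 24279 (G-CSF). Its difference was 0.48 ± 0.54 (95% interval −0.89 to 1.86). Cyp1a2, an enzyme of caffeine and arylamine metabolism, ran from 1648 to 11870 with PBS and read 6655 and 7744 with G-CSF (0.69 ± 0.93). For both genes the PBS arrays enclosed the G-CSF arrays.

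Cyp3a11, the main drug-clearing enzyme of family 3 in mice, read 37782 and 53546 (PBS) against 48801 and 46482 (G-CSF) (0.08 ± 0.27). These values approach the highest signals of any probe set, 58436 to 63693, where a difference may be compressed. Cyp2c29, an abundant pericentral enzyme, read 9695 and 38743 (PBS) against 30148 and 14912 (G-CSF). Cyp26a1, which breaks down retinoic acid, read 233 and 1409 (PBS) against 784 and 609 (G-CSF). The 95% interval of the difference ran from −1.77 to 2.03 for Cyp2c29 and from −1.91 to 2.38 for Cyp26a1. Neither a rise nor a fall within these limits can therefore be excluded.

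The periportal list held Cyp2f2 and Cyp17a1, both tested. Cyp2f2 read 2264 and 4239 (PBS) against 1809 and 2445 (G-CSF) (−0.55 ± 0.44). Its G-CSF arrays lay around PBS replicate 1 and below PBS replicate 2. Cyp17a1, a steroid hydroxylase, read 120 and 276 (PBS) against 228 and 117 (G-CSF) (−0.14 ± 0.55). For these genes the gap between the PBS arrays was 0.90 and 1.06, smaller than the pericentral median. Gaps of the pericentral P450 genes ran from 0.38 to 2.83, a range that holds both periportal values. The difference between the zones was not tested, since the periportal list has 2 genes. Outside the P450 family the gap had a median of 1.96 over 12 pericentral genes and of 1.24 over 9 periportal genes. The gaps ran from 0.73 to 3.61 in the former and from 0.34 to 2.14 in the latter.

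Genes differed in where the G-CSF mean fell between the PBS arrays, counted as 0% at PBS replicate 1 and 100% at PBS replicate 2 on the log2 scale. Over the 39 genes with a PBS gap of at least 1 the median was 59.5%, with 14 genes below 50% and 24 from 50% to 100%. Cyp4f18 lay outside, at 227%. The lowest were Cyp2c54 (13.5%), Cyp2c23 (17.5%), Cyp4a14 (20.3%) and Cyp2c37 (26.2%), and the highest below 100% were Cyp7b1 (86.1%), Cyp2d9 (83.5%), Cyp2e1 (81.9%) and Cyp2c70 (81.2%). Within the Cyp2c genes alone, 9 with such a gap ran from 13.5% to 81.2%. Cyp2c54, a Cyp2c enzyme of the liver, read 717 and 4830 (PBS) against 944 and 918 (G-CSF) (−0.99 ± 0.90). Its high value lay on PBS replicate 2 alone, at least 4-fold above all other arrays. Probe sets of the closely related Cyp2c genes may read RNA of more than 1 gene, so their differences from each other are uncertain.

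Family 2, with 35 genes on the array and 25 tested, held most of the drug-metabolising members, and 21 of the 25 had PBS replicate 1 lowest and PBS replicate 2 highest. Cyp2d9, an enzyme higher in livers of male mice, read 1448 and 8300 (PBS) against 6465 and 6011 (G-CSF) (0.84 ± 0.84). It was low on PBS replicate 1 alone, at least 4-fold below all other arrays. All 5 tested Cyp2d genes shared the order of the family, with a median PBS gap of 2.12. Cyp2b9, a gene higher in livers of female mice, read 328 and 1007 (PBS) against 975 and 408 (G-CSF). The male-predominant list (Cyp2d9, Cyp4a12a and Cyp7b1) had a median difference of 0.59 and the female-predominant list (Cyp2b9 and Cyp2b13) of −0.05. Against PBS replicate 1 alone these medians were 1.76 and 0.62, and against PBS replicate 2 alone −0.41 and −0.72.

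The G-CSF arrays differed at least 2-fold from each other for 5 of the 50 genes. Of these Cyp2b10, Cyp2b9, Cyp2c29 and Cyp8b1 were higher in G-CSF replicate 1, and Cyp2s1 was higher in G-CSF replicate 2.

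In family 3, all 3 tested genes, Cyp3a11, Cyp3a13 and Cyp3a25, were lowest in PBS replicate 1 and highest in PBS replicate 2. In family 4, 10 of 12 genes were tested and 8 had that order, Cyp4f16 and Cyp4f18 being the exceptions. The median difference of family 4 was 0.36, with 8 of 10 above 0. Cyp4a14, a fatty acid hydroxylase induced through PPAR-alpha, read 1504 and 5238 (PBS) against 2330 and 1613 (G-CSF) (−0.53 ± 0.66). Cyp4v3, a fatty acid hydroxylase of many tissues, read 1952 and 9543 (PBS) against 5610 and 5323 (G-CSF), and a second probe set gave nearly the same gap between the PBS arrays, 2.42 against 2.28. In family 1, Cyp1b1, a P450 of stromal and myeloid cells, read 624 and 1271 (PBS) against 986 and 1241 (G-CSF) (0.30 ± 0.45).

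Of the 6 bile acid and oxysterol genes, 5 were tested, with a median difference of 0.32. Cyp7a1, the rate-limiting enzyme of the classical bile acid pathway, read 203 and 1218 (PBS) against 695 and 1077 (G-CSF) (0.75 ± 0.85). Cyp7b1, the oxysterol hydroxylase of the alternative pathway, read 353 and 1148 (PBS) against 1030 and 926 (G-CSF) (0.59 ± 0.60). A second Cyp7b1 probe set above the filter gave 0.56. On the probe sets above the filter both genes were thus lowest in PBS replicate 1, by a wide margin. A second Cyp7a1 probe set, below the filter, read 40.3 and 95.8 (PBS) against 38.8 and 56.4 (G-CSF). With the mean of all probe sets the Cyp7a1 difference was 0.22.

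Cyp8b1, the sterol 12-alpha-hydroxylase that sets the cholic acid share, read 67.5 and 221 (PBS) against 274 and 92.7 (G-CSF). Cyp27a1, the mitochondrial sterol 27-hydroxylase, read 1989 and 6306 (PBS) against 3485 and 3058 (G-CSF) (−0.12 ± 0.60). Neither had groups that separated. Cyp2r1, a vitamin D 25-hydroxylase, read 102 and 314 (PBS) against 257 and 222 (G-CSF) (0.35 ± 0.57).

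The other 21 P450 genes lay below the filter, with mean signals of 9.93 to 93.1, and 8 of the 71 were at background on all arrays. They include 4 of the 5 listed steroid hormone genes on the array: Cyp11a1 of the first step, Cyp11b1, Cyp11b2 and Cyp21a1. The vitamin D enzymes Cyp24a1 and Cyp27b1 and the brain enzyme Cyp46a1 also lay there. Of the 4 probe sets that list 2 P450 genes each, and were not tested, that of Cyp2a5 and Cyp2a4 read 1218 and 14356 (PBS) against 9843 and 8210 (G-CSF). That of Cyp3a41a and Cyp3a41b read 213 and 3451 (PBS) against 871 and 396 (G-CSF). That of Cyp4a31 and Cyp4a10 read 1131 and 5749 (PBS) against 2828 and 2661 (G-CSF). These 3 had their lowest value in PBS replicate 1 and their highest in PBS replicate 2, whereas that of Cyp4f37 and Cyp4f16, at 4.06 and 127 (PBS) against 91.0 and 168 (G-CSF), was highest in G-CSF replicate 2. More than 1 probe set passed the filter for 10 tested genes, and for 8 of these all differences had the same sign.

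Genes that serve the P450 enzymes were also mostly lower in PBS replicate 1 than in PBS replicate 2. All 5 tested electron donors and partners were lower in PBS replicate 1 than in PBS replicate 2, with a median gap of 0.94, and 0 passed the test in either direction (limma; 0 at an unadjusted p below 0.05). Fdx1, the ferredoxin of mitochondrial P450 enzymes, read 7807 and 14967 (PBS) against 8101 and 7912 (G-CSF) (−0.43 ± 0.41). Of 14 tested regulators 0 passed (0 at an unadjusted p below 0.05), and 10 had PBS replicate 1 lowest and PBS replicate 2 highest. Rxra, the partner of the receptors CAR, PXR and PPAR-alpha, read 832 and 1485 (PBS) against 1845 and 1160 (G-CSF) (0.39 ± 0.46). Of 8 tested heme synthesis and breakdown genes 0 passed (0 at an unadjusted p below 0.05), with a median difference of 0.12.

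The gap between the PBS arrays also ran through lists of other cells. The 14 tested hepatocyte markers had a median gap of 1.42, and the hepatocyte markers on the array summed to 205977 in PBS replicate 1, 408182 in PBS replicate 2, and 344868 and 314555 with G-CSF. Hepatocyte RNA was thus abundant on all 4 arrays, although the labels name bone marrow-derived cells. Kupffer cell and endothelial lists had median gaps of 1.25 and 1.46. T cell markers ran the opposite way, with a summed signal of 24667 in PBS replicate 1 and 3726 to 5428 on the other arrays. The neutrophil markers were also mostly lower in PBS replicate 2 than in PBS replicate 1, with a median gap of −0.93 and 4 of 15 higher. PBS replicate 1 correlated with the other arrays at 0.813 to 0.844 over all tested genes, and the other arrays with each other at 0.939 to 0.974, a description across genes of arrays scaled alike. The part of these cell types in the P450 values was not tested. The 3' to 5' signal ratio of Gapdh, a measure of RNA integrity, was 14.8 to 15.7 with PBS and 19.1 to 20.2 with G-CSF. That of Actb was 9.88 to 11.2 with PBS and 12.6 to 13.7 with G-CSF. For both genes the 3' end thus read far above the 5' end on all 4 arrays, and more so with G-CSF. The part of RNA integrity in the P450 values was not tested either.

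**Figure D4:**
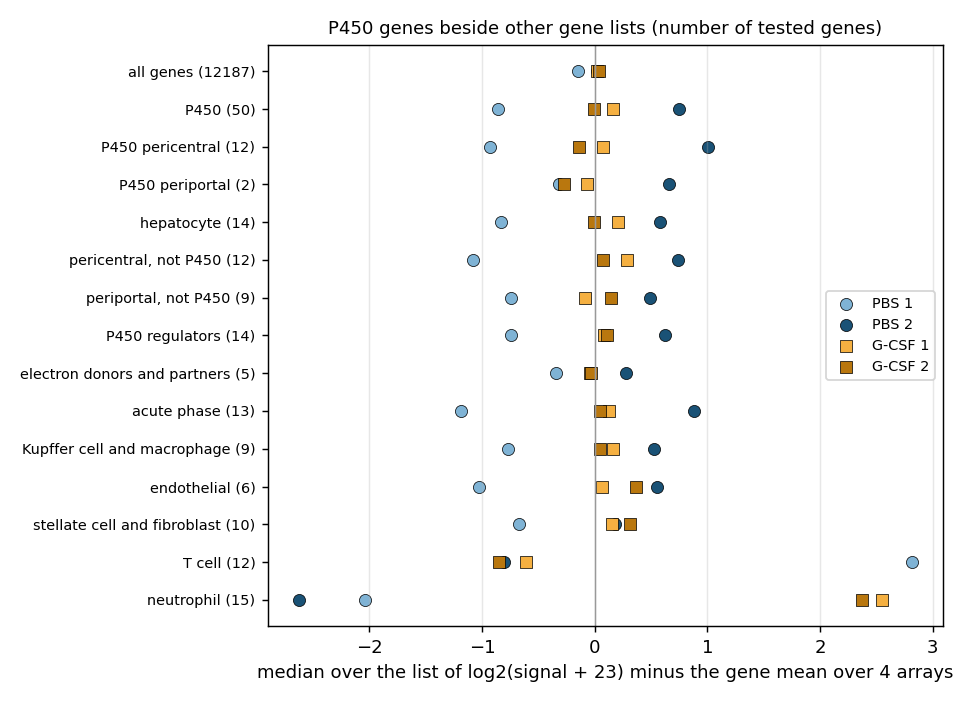
For each gene list (rows, with the number of tested genes) the 4 points give the median over its genes of log2(signal + 23) minus the gene mean, 1 point per array. P450 genes, hepatocyte markers and most other lists share the order PBS replicate 1, G-CSF arrays, PBS replicate 2. These include the Kupffer cell, endothelial and acute phase lists. T cell markers are highest in PBS replicate 1 and neutrophil markers on the G-CSF arrays.

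Which PBS array served as the control decided the direction of most P450 genes. Without PBS replicate 1, 12 of the 50 passed (limma, 4.23% of all genes), 11 lower (1.45% of all genes) and 1 higher (2.78%), and the median difference was −0.64. Lower in that fit were Cyp2c54 (−2.35), Cyp2c50 (−1.66), Cyp2c37 (−1.57), Cyp2c23 (−1.48) and Cyp4a14 (−1.42), with adjusted p from 0.00233 to 0.0329, as well as Cyp27a1, Cyp2c68, Cyp3a13, Cyp3a25, Cyp4f14 and Cyp4v3. Without PBS replicate 2, 30 of the 50 passed, all higher (22.6% of all genes passed higher and 15.9% lower), and the median difference was 0.98. Examples were Cyp1a2 (2.11), Cyp2d9 (2.09), Cyp7a1 (1.98) and Cyp2e1 (1.24). In these fits the lone PBS array is assumed to vary like the G-CSF arrays.

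The genes called lower without PBS replicate 1 and higher without PBS replicate 2 were 6: Cyp27a1, Cyp2c50, Cyp2c68, Cyp3a13, Cyp3a25 and Cyp4v3. Cyp4f18 alone was called higher in both fits, with adjusted p of 0.0106 and 0.000372. It was not called without G-CSF replicate 1 or without G-CSF replicate 2, where no P450 gene passed (0 of 50 in each fit, with 1 at an unadjusted p below 0.05 in each; 0.0492% and 0.181% of all genes passed).

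The P450 genes at least 2-fold apart without overlap depended in the same way on the array left out. They numbered 12 without PBS replicate 1 (6.92% of all genes) and 24 without PBS replicate 2 (27.5%). They numbered 3 without G-CSF replicate 1 (7.10%) and 5 without G-CSF replicate 2 (7.53%). With specific probe sets only, 46 P450 genes were tested and 1 was that far apart (5.79%). With the replicate number as a block, limma called Cyp4f18 alone among the 50, and over all genes it called 0.730% higher and 0.0246% lower.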

How the data were processed

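Total RNA (40 ng, 3' IVT Express kit) from 2 PBS and 2 G-CSF samples was measured on 1 Affymetrix array each. The deposited intensity values are linear MAS5 signals, per the submitters' processing notes; version not given in the sources used here. All arrays share a trimmed mean of 500.0, and the authors' scaling was kept. Genes were named from the platform table, and all 71 P450 genes matched the RefSeq gene table by Entrez ID. Tested genes had a mean signal above 95.03, the median of non-control probe sets. The probe set with the highest mean signal stood for a gene. Of the P450 symbols, 6 were left out (Cyp51, a pseudogene and probe sets of several genes).

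A pseudocount of 23 was added before log2. Testing used R 4.3.3 and limma 3.58.1 (lmFit, eBayes with a trend, 2 residual and 3.13 prior degrees of freedom, two-sided, Benjamini-Hochberg over 12187 genes). The procedure was run on simulated data with the same noise on every array. That run cannot show how it performs with an array that stands apart, such as PBS replicate 1. The number of arrays limits the precision. Named genes were up to 10 per direction without overlap, those with 1 array 4-fold apart, and a fixed set; others were picked after their values were seen. Members and lists were chosen with earlier results of these data known. The background limit per array was 106, 94.6, 86.4 and 63.0, in the order PBS 1, PBS 2, G-CSF 1, G-CSF 2. Alternatives were other normalizations, pseudocounts, filters, priors and probe set rules, the replicate block, and each array left out. Figures used Python 3.11.15 and matplotlib 3.10.9.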

Additional observations from a re-analysis of the deposited data

How the results depend on the processing

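The count of P450 genes called stayed at 0 under the alternatives of normalization, pseudocount, filter, prior and probe set. Under these the median P450 difference (0.21) ran from 0.15 (75th percentile filter) to 0.23 (specific probe sets only). The order with PBS replicate 1 lowest and PBS replicate 2 highest (39 of 50, 78.0%; alternatives added after seeing the data) held for 42 of 71 genes (59.2%) without a filter, 33 of 37 (89.2%) with the 75th percentile filter, and 36 to 39 of 46 or 50 otherwise. The genes at least 2-fold apart without overlap numbered 2, and 4 with a pseudocount of 1, and 1 with quantile normalization, median centring, 4 times the pseudocount, the 75th percentile filter or specific probe sets only. Over all genes, 11 were called with specific probe sets only. Leaving out each array in turn gave 6 to 4689 genes called over all genes, 0 to 30 P450 genes called, 3 to 24 at least 2-fold apart, and medians of −0.64 to 0.98. The highest values came without PBS replicate 2, and the median of −0.64 without PBS replicate 1.

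The replicate numbers of the labels were not shown to pair the arrays: deviations of same-numbered arrays correlated at −0.038 over genes. With the replicate block 92 genes were called over all genes and 1 P450 gene, Cyp4f18 (2.47, limma adjusted p = 0.0110).

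Of 336 refits of single named genes, 299 kept direction and side of the threshold, 21 turned and 17 newly passed, 1 of them (Cyp27a1 without PBS replicate 2) being among those that turned. With an array left out, the differences that turned ranged from −0.41 to 2.09 (Cyp2d9), −2.35 to 0.37 (Cyp2c54), −0.27 to 1.24 (Cyp2e1), −0.72 to 2.11 (Cyp1a2), −0.67 to 0.40 (Cyp17a1), −0.48 to 1.98 (Cyp7a1), −0.23 to 1.41 (Cyp7b1), −0.40 to 1.04 (Cyp8b1), −0.94 to 0.71 (Cyp27a1), −0.17 to 0.33 (Cyp3a11), −0.87 to 1.13 (Cyp2c29), −1.42 to 0.36 (Cyp4a14), −0.20 to 0.80 (Cyp1b1), −1.004 to 1.48 (Cyp26a1), −0.65 to 0.90 (Cyp2b9) and −0.36 to 1.07 (Cyp2r1). The Cyp27a1 difference also turned, to 0.16, with the mean of all probe sets. That mean includes a second probe set, within background on all arrays, whose difference was 0.43. It read 12.9 and 1.70 (PBS) against 29.7 and 7.65 (G-CSF).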
